A study of Drosophila melanogaster with 72 samples.

Results

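CPR genes encode the largest family of insect cuticle proteins, and their symbols join Cpr to a cytological position. Of 15240 genes in the table, 70 had a symbol made of Cpr, a number and a capital letter. These 70 were taken as the members, and where a gene had several transcripts the one with the highest mean stands for it. CPR proteins carry the Rebers and Riddiford consensus, a chitin-binding stretch, and are secreted by epithelia that lay down cuticle. Many are made in bursts around larval, pupal and adult moults, and the adult fly keeps cuticle in its body wall, corneal lenses, tracheae, foregut, hindgut and parts of the reproductive ducts. The corneal lens is known to contain the CPR proteins Crys, Cpr66D and Cpr72Ec beside the unrelated protein retinin. For most other members no separate role in the adult is described here.

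RNA was sequenced from Oregon R males in heart, head and periphery, where periphery is the body without the head. Flies under time-restricted feeding (TRF), whose food alternated with a medium of agar and water, were compared with flies fed ad libitum (ALF). Ages were 3, 5 and 7 weeks for head and periphery and 5 weeks for heart, at zeitgeber times (ZT, hours after lights on) 0, 6, 12 and 18. The week 5 heads and peripheries were sampled at 8 times, 3 h apart. A given tissue, age, regime and ZT was sequenced once, so the spread given below is that between libraries of different ZT or feeding and may be partly technical. Levels are FPKM, read counts divided by transcript length and library size, a scale per length on which genes can be compared.

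Libraries were kept by ninaE, the rhodopsin gene of the outer photoreceptors: heads under 1000 FPKM and peripheries above it were left out. The 60 kept libraries were 8 heart, 26 of 32 labelled head and 26 of 32 labelled periphery. ninaE was 20.8 to 86.3 FPKM in heart, 9856 to 27051 FPKM in the kept heads and 0 to 0.633 FPKM in the kept peripheries. The cardiac transcription factor gene Hand was 721 to 1779 FPKM in heart, at most 1.68 FPKM in head and at most 15.6 FPKM in periphery, while prc, a matrix gene of pericardial cells, was at most 0.357 FPKM in heart. Depth was 7.78 to 23.7 M reads (M, mega) in heart, 0.210 to 18.6 M reads in head and 6.48 to 21.7 M reads in periphery, and the week 3 heads had 0.210 to 2.30 M reads. In 4 libraries of week 5 (head ALF ZT15 and ZT21, heart TRF ZT06, heart ALF ZT00) at least 1 member of at least 10 FPKM was more than 3 times above the next library of the tissue. Tissue results are also given without these 4 and heart ALF ZT06, where no member met that rule but Cpr66D was 155.5 FPKM against 58.3 FPKM in the next heart. These 5, chosen by the levels of CPR members, are called the libraries that stand apart. Over all genes, 205 met the rule in heart ALF ZT18 and 0 in heart ALF ZT06. No member was among the 205, and heart ALF ZT18 was kept in those results too.

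A mean of at least 1 FPKM in at least 1 tissue was reached by 33 of the 70 members: 19 in heart, 26 in head and 26 in periphery, 16 of them in all 3. At a mean of at least 10 FPKM there were 6 in heart, 12 in head and 9 in periphery, and at 100 FPKM 0 in heart, 3 in head and 4 in periphery. The other 37 stayed under 1 FPKM in each tissue, among them all 3 members of region 65E and Cpr12A, whose mean was under 0.1 FPKM in each tissue. Cpr65Ax1 and Cpr65Ax2, near-identical neighbours whose spans overlap in the table, were listed at 0 in every kept library, and reads of such copies may have been lost in counting. Genes with no CPR neighbour, such as Cpr92F and Cpr30B, were also among those under 1 FPKM.

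A few genes made up most of the CPR transcripts in each tissue. The 5 highest members held 68.9% of the summed mean FPKM of all members in heart, 80.5% in head and 83.6% in periphery. Summed over the 70 members, the level ranged from 96.7 to 484 FPKM in heart (median 128), 678 to 1801 FPKM in head (median 833) and 787 to 1166 FPKM in periphery (median 949). The heart libraries thus lay under every head and periphery library in this sum.

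**Figure D1:**
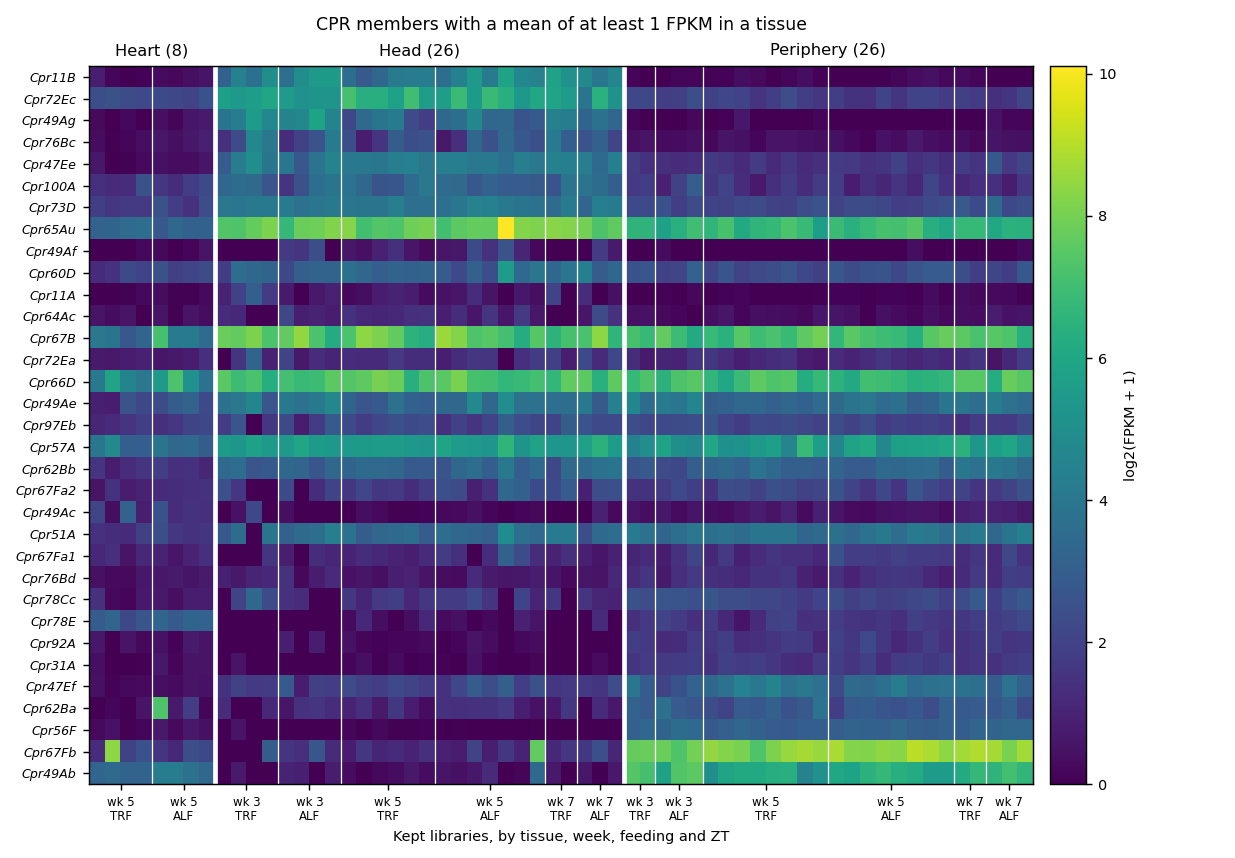
Level of the 33 members with a mean of at least 1 FPKM in a tissue (rows, ordered by head minus periphery) in each of the 60 kept libraries (columns, by tissue, week, feeding and ZT), as log2(FPKM + 1). Cpr65Au, Cpr67B, Cpr66D and Cpr57A are bright in head and periphery, Cpr72Ec and Cpr11B in head, and Cpr67Fb and Cpr49Ab in periphery, with single bright cells in heart and head from libraries that stand apart.

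The leading genes of head and periphery overlapped. Cpr65Au (chr3L:6124415-6125209 in build dm3, minus strand, 106 codons) had the highest mean of the head members, at 253 ± 184 FPKM in head (SD, n = 26) and 102 ± 31.0 FPKM in periphery (SD, n = 26). At week 5 its lowest, median and highest levels were 5.70, 8.32 and 11.4 FPKM in 8 hearts, 131, 211 and 1104 FPKM in 13 heads and 48.5, 107 and 170 FPKM in 16 peripheries. The 1104 FPKM came from 1 library, head ALF ZT15, where 57 genes were more than 3 times above the next head library; the next head value of Cpr65Au was 320 FPKM. Head exceeded periphery by 1.16 on the log2(FPKM + 1) scale (SE 0.21, limma, adjusted p = 8.21e-06), and by 0.91 without the libraries that stand apart.

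Cpr67B (chr3L:9397897-9399274, plus strand, 260 codons) was high in both parts of the body, with week 5 levels of 74.7, 172 and 388 FPKM in head and 79.6, 134 and 253 FPKM in periphery (lowest, median and highest). These ranges overlapped almost fully, and the difference of 0.29 did not pass (SE 0.30, limma, adjusted p = 0.380). Cpr57A was likewise 36.4 to 97.2 FPKM in head and 23.1 to 111 FPKM in periphery, a difference of 0.04 (SE 0.21, limma, adjusted p = 0.867).

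The lens genes parted from each other. Cpr72Ec (chr3L:16358994-16360440, minus strand, 429 codons in 1 exon) was a head gene, at 40.8, 79.8 and 143 FPKM in 13 heads of week 5, against 1.73, 2.64 and 4.19 FPKM in 16 peripheries. No library of one group entered the range of the other, and head exceeded periphery by 4.37 (SE 0.16, limma, adjusted p = 5.52e-22). The lens gene retinin had 351 to 1374 FPKM in the kept heads and at most 0.287 FPKM in the kept peripheries. Cpr66D (chr3L:8633539-8636684, plus strand, 270 codons) was instead 80.5, 155 and 270 FPKM in head and 66.1, 105 and 191 FPKM in periphery, a difference of 0.71 (SE 0.21, limma, adjusted p = 0.00342). Cpr66D transcripts were therefore abundant where retinin was at or near 0. Crys was not found by symbol and is not reported here.

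**Figure D2:**
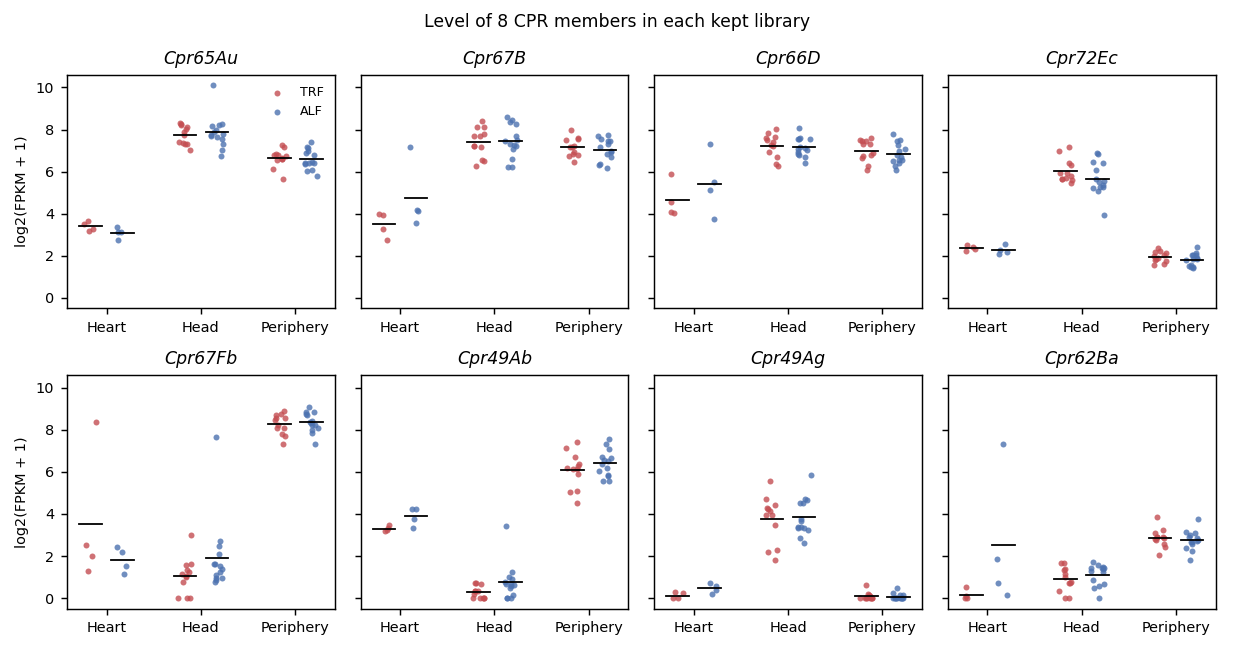
Level of 8 members in each kept library (points) as log2(FPKM + 1), by tissue and feeding (TRF left of ALF), with the mean of each group as a line. Cpr72Ec and Cpr49Ag sit high in head, Cpr67Fb and Cpr49Ab in periphery, and the lone high points of Cpr67Fb in heart (332 FPKM) and head (204 FPKM), of Cpr62Ba (159 FPKM) and Cpr67B (143 FPKM) in heart and of Cpr65Au in head (1104 FPKM) each come from 1 library.

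Several lower members were head genes. Cpr11B had 6.12, 18.7 and 54.9 FPKM in week 5 heads and at most 0.375 FPKM in peripheries, and Cpr49Ag had 2.56, 9.33 and 24.5 FPKM in heads and at most 0.557 FPKM in peripheries. Cpr47Ee was 12.1 to 20.5 FPKM in heads and 1.34 to 2.86 FPKM in peripheries, and Cpr73D was 12.0 to 21.2 FPKM in heads and 2.63 to 4.94 FPKM in peripheries. The head and periphery ranges of these 4 did not overlap. The share of all genes with separate ranges is not given here, and 79.7% of all genes tested were called between head and periphery. The differences on the log2(FPKM + 1) scale, which understates the change of low genes, were 4.10 for Cpr11B (SE 0.17), 3.18 for Cpr49Ag (SE 0.18), 2.58 for Cpr47Ee (SE 0.08) and 1.83 for Cpr73D (SE 0.11), with limma adjusted p of at most 5.55e-16. Cpr76Bc (1.85), Cpr100A (1.68) and Cpr60D (0.81) also passed. Members that reached a mean of 1 FPKM in head and in no other tissue were Cpr11A, Cpr11B, Cpr49Af, Cpr49Ag, Cpr64Ac and Cpr76Bc. The tissue test took genes averaging at least 1 FPKM over the week 5 heads, peripheries and hearts together. Cpr11B, Cpr49Ag and Cpr76Bc entered it through head alone, so the filter favoured a difference and their p-values are no separate support.

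Periphery was led by Cpr67Fb (chr3L:10887273-10887793, plus strand, 122 codons), at 333 ± 99.9 FPKM (SD, n = 26), the highest mean of any member in any tissue. At week 5 it was 0.713, 1.05 and 204 FPKM in heads, against 161, 339 and 537 FPKM in peripheries. With 1 head library aside (ALF ZT21, 204 FPKM), heads of all weeks had at most 6.93 FPKM. The head minus periphery difference was −6.61 with that library (SE 0.57, limma, adjusted p = 5.26e-12) and −7.25 without the libraries that stand apart. That library is among them because Cpr67Fb itself was high there, so the second value is a description and no separate support. Cpr49Ab followed with 0, 0.277 and 9.88 FPKM in heads and 22.2, 67.8 and 105 FPKM in peripheries, a difference of −5.21 (SE 0.24, limma, adjusted p = 3.55e-19). Its head maximum came from that same ALF ZT21 library.

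Cpr56F, at most 0.161 FPKM in week 5 heads and 6.08 to 9.06 FPKM in peripheries, had no overlap between the tissues either (−3.02, SE 0.06, limma, adjusted p = 9.72e-28). Cpr62Ba (−1.68), Cpr47Ef (−1.53), Cpr31A (−1.53), Cpr92A (−1.40), Cpr78E (−1.15), Cpr78Cc (−0.64) and Cpr51A (−0.26, SE 0.12, limma, adjusted p = 0.0486) were also lower in head. The call of Cpr51A was lost under 10 of the alternatives tried. Cpr31A, Cpr56F, Cpr76Bd and Cpr92A reached a mean of 1 FPKM in periphery and in no other tissue. Cpr31A, Cpr56F and Cpr92A entered the tissue test through periphery alone, so the filter favoured a difference for them too.

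In all, 20 of 28 members tested differed between head and periphery, which is 71.4% of the members where 79.7% of all 12287 genes tested were called, so the count itself is near the background. In head 10 members were higher, where 35.3% of all genes were, and 10 were lower, where 44.4% of all genes were. In these bulk samples, fewer cells of a type and less RNA per cell cannot be told apart.

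The summed CPR level was lower in heart than in either other tissue, as given above. The leading heart means were Cpr66D, Cpr67Fb, Cpr67B, Cpr62Ba and Cpr57A, but for 3 of them the mean rests on 1 library. Cpr67Fb was 1.42, 332, 3.01 and 4.77 FPKM in TRF hearts at ZT00, ZT06, ZT12 and ZT18, against 1.88, 1.21, 4.38 and 3.56 FPKM in ALF hearts at the same times. Cpr62Ba was 0, 0.089, 0 and 0.461 FPKM in TRF hearts and 159, 0.644, 2.59 and 0.103 FPKM in ALF hearts, in the same order of times. Cpr67B was 14.9, 14.4, 5.76 and 8.78 FPKM in TRF hearts and 143, 17.1, 16.3 and 10.6 FPKM in ALF hearts. The high values were thus TRF ZT06 for Cpr67Fb and ALF ZT00 for both Cpr62Ba and Cpr67B.

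Cpr66D was 16.0, 58.3, 22.6 and 15.2 FPKM in TRF hearts and 43.9, 156, 33.8 and 12.5 FPKM in ALF hearts, with ZT06 the highest time under both regimes. The median over the 8 hearts was 28.2 FPKM for Cpr66D, 14.7 FPKM for Cpr67B, 9.64 FPKM for Cpr57A, 9.60 FPKM for Cpr49Ab, 8.32 FPKM for Cpr65Au and 7.45 FPKM for Cpr78E. By the median, Cpr67Fb (3.28 FPKM) and Cpr62Ba (0.282 FPKM) ranked behind these 6.

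Other genes stood apart in such single libraries too, some of them genes of other tissues. In the heart TRF ZT06 library, Peb and PebII, genes of the ejaculatory bulb, were 346 and 113 FPKM where the other hearts had at most 21.0 and 24.9 FPKM, and the seminal fluid gene Sfp87B was 623 FPKM where they had at most 28.2 FPKM. Not all genes looked at beside Cpr67Fb were high in that heart. Mur18B was 4.49 FPKM, Dup99B 163 FPKM and PebIII 179 FPKM, where the other hearts had at most 1209, 1005 and 1796 FPKM. In the head ALF ZT21 library, Peb was 202 FPKM, PebII 96.3 FPKM and Sfp87B 230 FPKM, where the other kept heads had at most 0.687, 0.391 and 1.55 FPKM. Cyp4g1 was 1779 FPKM there, where the other kept heads had at most 56.4 FPKM, and it was 7525 to 43271 FPKM in hearts. The 4 accessory gland markers listed (Acp36DE, Acp26Aa, Acp26Ab and Acp29AB) were at most 0.059 FPKM in head ALF ZT21 and at most 2.57 FPKM in heart TRF ZT06. Other genes named for accessory gland or seminal fluid were higher in heart TRF ZT06: Acp24A4 was 243.5 FPKM where the other hearts had at most 4.66 FPKM, Sfp24Bb 82.6 FPKM where they had at most 4.09 FPKM, and Sfp24Ba 48.3 FPKM where they had at most 2.61 FPKM. In periphery, where Cpr67Fb is high in every kept library, Peb was 300 to 1286 FPKM and Sfp87B 343 to 1190 FPKM. In the heart ALF ZT00 library, the trypsin gene zetaTry was 67.1 FPKM where the other hearts had at most 1.02 FPKM, and CG17475 was 186 FPKM where they had at most 0.585 FPKM. In the head ALF ZT15 library, of 2.10 M reads, ninaE was 9856 FPKM, the lowest of the kept heads, where the others had a median of 20901 FPKM, and the photoreceptor gene trp was 429 FPKM against a median of 1112 FPKM. The lens gene retinin was 1374 FPKM there and PebIII 7112 FPKM, where the other heads had at most 1156 and 4439 FPKM. These accompanying genes were chosen after their values were seen, and their part in the CPR values was not tested.

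At week 5, 22 of 28 members differed between heart and periphery, 2 higher and 20 lower in heart, or 78.6% of the members beside 81% of all genes; higher calls were 16.4% of all genes. Between heart and head 23 of 28 differed, 3 higher and 20 lower in heart, or 82.1% beside 78.2% of all genes; higher calls were 31.1% of all genes. Lower calls were 71.4% of the members in each comparison, beside 64.7% of all genes against periphery and 47% against head. The median difference of the members was −1.22 against periphery and −1.41 against head, beside −0.61 and −0.21 over all genes tested. Rescaling the libraries by the median of ratios moved the median of all genes by 0.372 and 0.458; the members were then 3 higher and 16 lower against periphery, and 5 higher and 17 lower against head. Among the calls over all genes, the share higher in heart was 20.2% as deposited and 37.7% rescaled against periphery, and 39.8% as deposited and 60.7% rescaled against head.

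Of the 28 members tested between tissues, Cpr78E was the one called higher in heart than in both head and periphery. It had 6.72, 8.94, 3.52 and 5.28 FPKM in TRF hearts and 8.87, 6.34, 8.44 and 8.17 FPKM in ALF hearts, against 0 to 1.20 FPKM in heads and 0.496 to 3.25 FPKM in peripheries of week 5. No heart value lay inside the other ranges, and heart exceeded periphery by 1.45 (SE 0.19, limma, adjusted p = 3.10e-08) and head by 2.597 (SE 0.20, limma, adjusted p = 6.03e-13). Cpr49Ab stood between the other tissues, at 8.19 to 17.9 FPKM in heart, 2.96 above head (SE 0.31, limma, adjusted p = 7.15e-10) and 2.25 below periphery, written −2.25 (SE 0.29, limma, adjusted p = 3.89e-08). Cpr72Ec was 0.42 above periphery (SE 0.19, limma, adjusted p = 0.0485), a call lost under 10 alternatives, and Cpr56F was 0.31 above head at levels of at most 0.621 FPKM in heart. Cpr49Ac, which fell under the filter of the tissue test, reached a mean of 1 FPKM in heart alone, at 3.29, 0.286, 8.01 and 0.789 FPKM in TRF hearts and 4.90, 1.46, 1.798 and 1.54 FPKM in ALF hearts, beside week 5 means of 0.139 FPKM in heads and 0.440 FPKM in peripheries.

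Members lower in heart than in periphery were led by Cpr67Fb (−5.52, SE 0.71), Cpr65Au (−3.39), Cpr47Ef (−3.32), Cpr67B (−3.01) and Cpr56F (−2.70). Cpr67Fb was −6.29 without the libraries that stand apart, which include the heart where it was itself high. Cpr51A (−2.11), Cpr57A (−2.07), Cpr62Bb (−1.79), Cpr66D (−1.74), Cpr78Cc (−1.57), Cpr31A (−1.34), Cpr62Ba (−1.29), Cpr92A (−1.22) and Cpr47Ee (−1.21) followed. Against head the lowest were Cpr65Au (−4.55), Cpr72Ec (−3.95), Cpr11B (−3.83), Cpr47Ee (−3.79), Cpr67B (−3.30) and Cpr49Ag (−2.85). Cpr66D (−2.45), Cpr57A (−2.11), Cpr73D (−2.08), Cpr51A (−1.85), Cpr47Ef (−1.79), Cpr62Bb (−1.78), Cpr76Bc (−1.70), Cpr100A (−1.53) and Cpr49Ae (−1.28) followed. Cpr62Ba is the weakest of these: its call against periphery, where the heart mean of 20.4 FPKM exceeds the periphery mean of 5.97 FPKM, was negative on the log scale (limma, adjusted p = 0.0383), was lost under 6 alternatives and became −2.05 without the libraries that stand apart.

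Neighbouring members often stood at different levels. With gaps of at most 20 kb, 49 of the 70 members fell into 12 clusters of 2 to 8 genes and 21 stood alone. In 9 clusters some members reached 1 FPKM in a tissue and others did not, in 2 none did, and in 1 (region 67F) every member did. Of the clustered members 20 reached 1 FPKM, and of the lone members 13 did. As 33 of the 70 members reached 1 FPKM, mixed clusters would also arise if level had no link to position. Whether neighbours differ more or less than that was not tested.

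Region 49A on 2R holds 8 members in 38.5 kb. Cpr49Ab averaged 11.6 FPKM in heart, 0.748 FPKM in head and 85.8 FPKM in periphery, while its neighbour Cpr49Aa was under 1 FPKM in each. Cpr49Ae averaged 4.12 FPKM in heart, 13.5 FPKM in head and 12.2 FPKM in periphery. Cpr49Ag had 0.249 FPKM in heart, 16.4 FPKM in head and 0.0645 FPKM in periphery. The cluster thus held genes that were high in periphery, in head and in both.

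Region 47E on 2R showed the same split between adjacent genes. Cpr47Ee averaged 16.6 FPKM in head and 2.13 FPKM in periphery, and Cpr47Ef, the next gene on the other strand, averaged 3.24 FPKM in head and 11.6 FPKM in periphery. Their 5 neighbours were under 1 FPKM in each tissue. Because the libraries were not stranded, reads from overlapping transcripts would not be told apart, but these transcripts do not overlap in the table.

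In region 67F, Cpr67Fb averaged 333 FPKM in periphery beside 2.02 FPKM for Cpr67Fa1 and 3.20 FPKM for Cpr67Fa2, which are near copies of each other and may share reads. In region 72E, Cpr72Ec averaged 63.4 FPKM in head beside 1.89 FPKM for Cpr72Ea and 0.580 FPKM for Cpr72Eb. In region 76B, Cpr76Bc averaged 6.65 FPKM in head and 0.323 FPKM in periphery, while Cpr76Bd averaged 0.706 FPKM in head and 1.60 FPKM in periphery. Region 65A held Cpr65Au at 253 FPKM in head, and its other 6 members were under 1 FPKM.

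**Figure D3:**
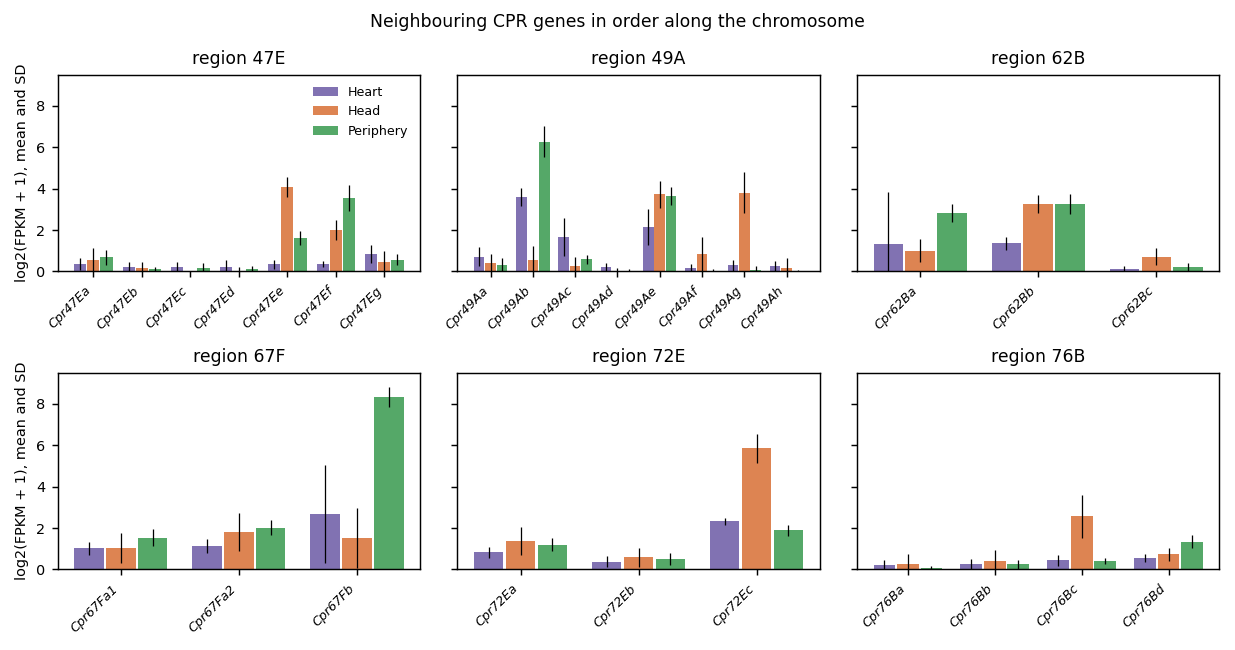
Mean log2(FPKM + 1) of neighbouring members in 6 regions, in the order of the genes along the chromosome, for 8 hearts, 26 heads and 26 peripheries (bars), with the SD between libraries. In region 49A Cpr49Ab stands high in periphery and Cpr49Ag in head, and in region 47E Cpr47Ee stands high in head and Cpr47Ef in periphery.

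Age was compared at ZT 0, 6, 12 and 18 with the feeding regimes averaged. In head few members passed. At week 7 against week 3, 0 of 26 passed (limma, and limma-voom called 0), beside 0% of all genes. An unadjusted p under 0.05 (limma) was held by 2 members and by 400 of 9842 genes. At week 5 against week 3, 1 of 26 passed (3.85%), Cpr49Ag, beside 0.0508% of all genes, of which 0.0203% rose and 0.0305% fell. Cpr49Ag was 3.58, 14.3 and 3.90 FPKM in TRF heads at week 5 (ZT00, ZT12, ZT18) and 9.42, 9.25 and 5.23 FPKM in ALF heads at those times, against 14.4, 18.3, 46.5 and 25.6 FPKM in TRF heads and 22.03, 24.9, 57.1 and 21.8 FPKM in ALF heads at week 3 (ZT00, ZT06, ZT12, ZT18). Each of these week 5 values lay below each week 3 value, the closest being 14.3 and 14.4 FPKM. No week 5 head of ZT06 was kept. Week 5 heads of ZTs outside this comparison reached 24.5 FPKM in ALF and 16.9 FPKM in TRF, inside the week 3 range. In the comparison Cpr49Ag fell by 1.87 (SE 0.20, limma, adjusted p = 0.00108). At week 7 it was 20.2 and 17.8 FPKM in TRF heads and 8.56, 12.5 and 9.16 FPKM in ALF heads (ZT00, ZT06 and, in ALF, ZT18), a range that overlapped both other ages.

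The Cpr49Ag counts were small: 6 to 42 reads a library at week 3, when head depth was 0.210 to 2.30 M reads, and 20 to 129 reads in the week 5 libraries compared, when it was 2.06 to 18.6 M reads. Without the ZT18 libraries the change was −1.75 and did not pass (limma, adjusted p = 0.352), and in ALF heads alone it was −1.85 (limma, adjusted p = 0.0511). Depth moved with week in head, and its part in this change was not tested. At week 7 against week 5, 0 of 26 members passed beside 0.0102% of all genes (limma, and limma-voom called 0). An unadjusted p under 0.05 (limma) was held by 4 members and by 941 of 9842 genes. Cpr49Ag was 1.27 higher at week 7 (SE 0.24, limma, adjusted p = 0.409), and Cpr11B (1.17) and Cpr76Bc (1.60) were next by p.

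In periphery, Cpr67Fb and Cpr62Bb rose with age. Cpr67Fb was 418 and 476 FPKM in TRF peripheries of week 7 (ZT12, ZT18) and 432, 268 and 415 FPKM in ALF peripheries (ZT06, ZT12, ZT18), against 207 and 224 FPKM in TRF and 227, 161 and 255 FPKM in ALF peripheries of week 3 at the same times. No week 7 value lay in the week 3 range, and the rise was 0.91 (SE 0.14, limma, adjusted p = 0.00248). Cpr62Bb was 14.5 and 12.5 FPKM in TRF and 16.1, 13.8 and 10.3 FPKM in ALF peripheries of week 7, against 5.07 and 6.12 FPKM in TRF and 4.12, 3.58 and 7.30 FPKM in ALF peripheries of week 3. These too were separate, and the rise was 1.22 (SE 0.19, limma, adjusted p = 0.00282). Cpr97Eb was 1.54 to 3.63 FPKM at week 7 and 3.46 to 4.39 FPKM at week 3, ranges that overlapped, and fell by 0.57 (SE 0.15, limma, adjusted p = 0.0348). These 3 of 27 members are 11.1%, beside 7.83% of all genes, of which 6.28% rose and 1.55% fell.

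Between week 5 and week 3, Cpr67Fb was already higher in periphery, by 0.65 (SE 0.13, limma, adjusted p = 0.0188), at 272 to 461 FPKM in 8 libraries of week 5 and 161 to 255 FPKM in 5 of week 3. Cpr47Ef rose by 1.10 (SE 0.21, limma, adjusted p = 0.0153), at 3.90 to 22.5 FPKM against 3.23 to 14.6 FPKM, and Cpr49Ae fell by 0.79 (SE 0.19, limma, adjusted p = 0.0420), at 6.83 to 14.9 FPKM against 11.04 to 24.03 FPKM. The ranges of these last genes overlapped. Again 3 of 27 members passed, or 11.1%, beside 3.99% of all genes, of which 3.68% rose and 0.308% fell. Between week 7 and week 5, 0 of 27 passed beside 1.54% of all genes, 0.475% higher and 1.07% lower (limma, and limma-voom called 0). An unadjusted p under 0.05 (limma) was held by 5 members and by 2255 of 12003 genes. Cpr62Bb (0.55), Cpr73D (0.54) and Cpr47Ef (−0.61) had the smallest p.

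**Figure D4:**
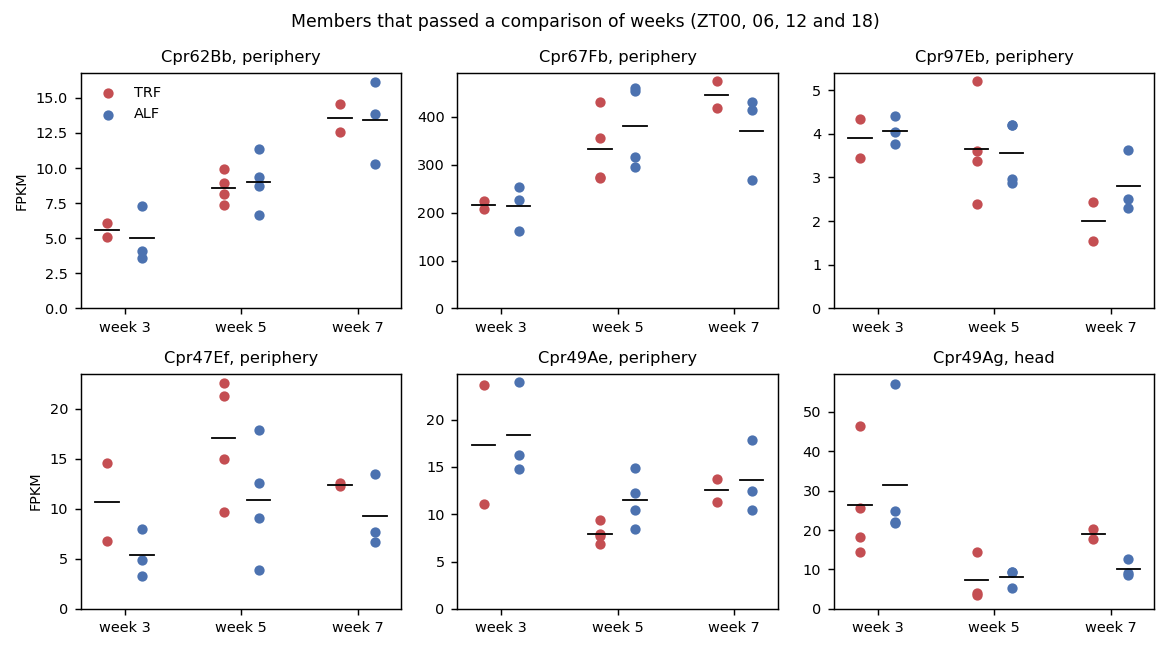
Level in FPKM of the 6 members that passed a comparison of weeks, in each kept library of ZT00, ZT06, ZT12 and ZT18 (points), by week and feeding (TRF left of ALF), with group means as lines. In periphery all week 7 points of Cpr67Fb and Cpr62Bb lie above all week 3 points, and in head all week 5 points of Cpr49Ag lie below all week 3 points.

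The age calls in periphery rest on few libraries, 5 at week 3 and 5 at week 7. Without the ZT12 libraries no member passed at week 7 against week 3, with Cpr67Fb at 0.95 (limma, adjusted p = 0.182) and Cpr62Bb at 1.01 (limma, adjusted p = 0.319), and without ZT18 the call of Cpr62Bb was kept (1.54) and those of the others were lost. The labels give no batch, so batch and age cannot be told apart. Levels of genes of male tissues differed between weeks in both directions. The accessory gland markers summed to 284 to 579 FPKM at week 3, 616 to 821 FPKM at week 5 and 593 to 881 FPKM at week 7, where 1 gene, Acp26Ab, carried the increase: its means were 189, 467 and 557 FPKM at weeks 3, 5 and 7, while those of Acp36DE were 123, 123 and 89.0 FPKM, of Acp26Aa 88.1, 111 and 84.2 FPKM, and of Acp29AB 19.1, 23.2 and 18.5 FPKM. The testis markers summed to 1774 to 2153 FPKM at week 3, 1675 to 2182 FPKM at week 5 and 1251 to 1940 FPKM at week 7. Peb averaged 546 FPKM at week 7 (300.1 to 794 FPKM) and 721 FPKM at week 3 (379 to 1286 FPKM), and PebII 257 FPKM at week 7 and 413 FPKM at week 3. PebIII was higher at week 7, at 1513 FPKM (1345 to 1690 FPKM), than at week 3, at 958 FPKM (568.2 to 1336 FPKM), with no overlap, and Obp56g averaged 1093 FPKM at week 7 and 864 FPKM at week 3. PebIII and Obp56g were not confined to periphery, as the kept heads had 1782 to 7112 FPKM and 152 to 561 FPKM of them. Over all kept peripheries Obp56g was 537 to 1339 FPKM. In heart TRF ZT06, where Cpr67Fb was high, Obp56g was 1135 FPKM and the other hearts had at most 24.4 FPKM. The part of the male tissues in the Cpr67Fb change was not tested.

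The change from week 3 to week 7 was compared between head and periphery as an interaction. Of 27 members 0 passed, beside 0.285% of all genes, 0.0814% higher and 0.203% lower (limma, and limma-voom called 0). An unadjusted p under 0.05 (limma) was held by 6 members and by 1135 of 12287 genes. Cpr62Bb (−1.20, SE 0.33, limma, adjusted p = 0.225), Cpr67B (−0.86) and Cpr57A (−0.76) had the smallest p, so their changes with age are not shown to differ between the tissues.

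Daily rhythm at week 5 was tested with a 24 h cosine shared by both regimes. No member passed in heart (0 of 19), in head (0 of 27) or in periphery (0 of 26), beside 0%, 0% and 0.242% of all genes (limma). At an unadjusted p under 0.05 (limma) there were 4 members in heart, 7 in head and 5 in periphery. That p was reached by 1008 of 9726 genes in heart, 668 of 9886 in head and 3179 of 11991 in periphery. limma-voom called 0 members in heart, 0 in head and 1 in periphery. That gene was Cpr49Ab, with 32.2, 59.4, 70.1, 70.3, 77.7, 82.6, 22.2 and 33.4 FPKM in TRF peripheries from ZT00 to ZT21 and 65.5, 56.9, 90.3, 105, 83.3, 72.8, 46.7 and 47.1 FPKM in ALF peripheries. Under both regimes ZT18 and ZT21 were low and ZT06 to ZT15 high. Its fitted amplitude was 0.64 with a peak at 9.10 h (limma, adjusted p = 0.0523), just outside the threshold; it passed with a pseudocount of 5 (adjusted p = 0.0458) or a minimum of 5 FPKM (adjusted p = 0.0437).

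Cpr67Fb in periphery was fitted with an amplitude of 0.39 and a peak at 19.1 h, and did not pass (limma, adjusted p = 0.0818). It was 432 FPKM at ZT18 and 161 FPKM at ZT09 in TRF peripheries, the highest and lowest of that regime, and 537 FPKM at ZT15 and 296 FPKM at ZT06 in ALF peripheries. The TRF ZT09 value lay apart from the other TRF peripheries of week 5, which had 272 to 432 FPKM. Cpr47Ef had the next smallest p in periphery (0.41, limma, adjusted p = 0.136). In head the smallest p were those of Cpr49Ag (amplitude 0.99, peak at 8.63 h, limma, adjusted p = 0.668), Cpr49Af (0.69) and Cpr73D (0.29). The only week 5 head kept between ZT03 and ZT12 was ALF ZT09, of 2.06 M reads, so a peak there is poorly placed. In heart the smallest p were those of Cpr66D (1.35, peak at 6.07 h, limma, adjusted p = 0.316), Cpr100A (0.56) and Cpr97Eb (0.42).

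**Figure D5:**
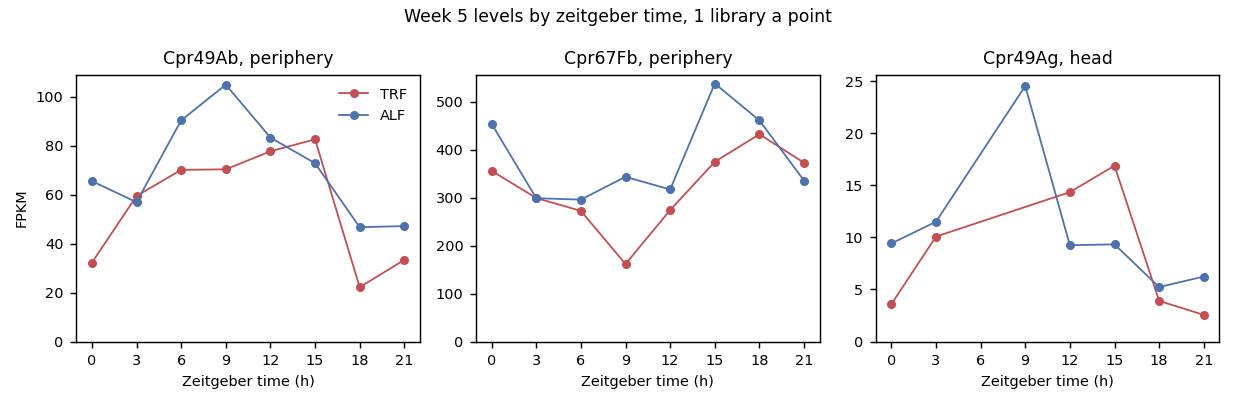
Level in FPKM by zeitgeber time at week 5, 1 library a point, in TRF and ALF, for Cpr49Ab and Cpr67Fb in periphery and Cpr49Ag in head, where libraries left out leave gaps. Cpr49Ab is low at ZT18 and ZT21 in both regimes, at 22.2 to 47.1 FPKM.

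Feeding gave no call among the members. TRF was compared with ALF between libraries of the same week and ZT, with 4 pairs in heart; head had 4, 6 and 2 pairs at the 3 ages in order, and periphery had 2, 8 and 2. In heart 0 of 19 members passed, in head 0 of 26 at each week and in periphery 0 of 26 at each week (limma, and limma-voom alike), beside 0% of all genes except 0.167% in periphery at week 7. At an unadjusted p under 0.05 there were 3 members in heart, 4, 3 and 4 in head and 0, 5 and 1 in periphery. Over all genes tested, that p was reached by 636 of 9726 in heart and by 751, 140 and 309 of 9879 in head. In periphery it was reached by 746, 628 and 1903 of 12002.

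In heart the smallest p was that of Cpr49Ab, at 8.95, 10.1, 8.34 and 8.19 FPKM in TRF hearts and 17.9, 17.8, 12.5 and 9.06 FPKM in ALF hearts (ZT00, ZT06, ZT12, ZT18). TRF was lower in 4 of 4 pairs, by −0.59 (SE 0.15, limma, adjusted p = 0.708). Its neighbour Cpr49Ae was 0.865, 0.768, 4.97 and 3.53 FPKM in TRF hearts and 4.09, 6.81, 8.27 and 3.64 FPKM in ALF hearts, again lower in 4 of 4 pairs (−1.07, SE 0.36, limma, adjusted p = 0.708). Cpr97Eb had the next smallest p (−0.38, lower in 4 of 4 pairs, limma, adjusted p = 0.708). Members above 0 were 5 of 19 and the median member was −0.34, beside −0.05 over all genes.

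In periphery at week 5, with 8 pairs the best covered comparison, Cpr67Fa1 was lower under TRF in 8 of 8 pairs (−0.58, SE 0.15, limma, adjusted p = 0.854), at levels of 0.827 to 4.83 FPKM. Cpr49Ab was lower in 6 of 8 pairs (−0.42, limma, adjusted p = 0.873), and Cpr47Ef higher in 7 of 8 (0.46, limma, adjusted p = 0.873). At week 3 Cpr67Fa1 (−0.63), Cpr100A (−0.78) and Cpr56F (−0.25) were lower in 2 of 2 pairs, with limma adjusted p of 0.753 to 0.768. At week 7 Cpr76Bd (−0.38) and Cpr97Eb (−0.40) were lower and Cpr67B (0.54) higher in 2 of 2 pairs, with limma adjusted p of 0.311 to 0.379.

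In head, Cpr11B was among the 3 smallest p at each age. It was 7.83, 20.9, 11.8 and 31.1 FPKM in TRF heads of week 3 and 11.9, 29.7, 42.3 and 45.2 FPKM in ALF heads (ZT00, ZT06, ZT12, ZT18), lower under TRF in 4 of 4 pairs (−0.83, SE 0.29, limma, adjusted p = 0.470). At week 5 it was lower in 5 of 6 pairs (−0.78, SE 0.24, limma, adjusted p = 0.906). At week 7 it was 56.0 and 33.8 FPKM in TRF heads and 27.8 and 14.7 FPKM in ALF heads at ZT00 and ZT06, higher in 2 of 2 pairs (1.07, SE 0.42, limma, adjusted p = 1). The other members with the smallest p in head were Cpr11A (1.34) and Cpr49Af (−1.43) at week 3, Cpr49Ae (−0.67) and Cpr67Fa1 (−0.77), each lower in 6 of 6 pairs, at week 5, and Cpr64Ac (−1.47) and Cpr57A (−0.86) at week 7. None of these passed.

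Other genes of the cuticle were counted from 4 lists. Of 27 CPR genes with older names, such as Lcp and Ccp genes, 1 was tested between the tissues: Pcp, a pupal cuticle gene, was 0.99 higher in head than in periphery (SE 0.21, limma, adjusted p = 8.01e-05). Among 37 genes of other cuticle families, 13 were tested, and 7 were higher and 4 lower in head than in periphery, led by retinin (9.46) and Muc11A (−7.15). Against periphery heart was higher for 2 and lower for 10 of the 13. Of all genes, 35.3% were called higher and 44.4% lower in head than in periphery, and 16.4% higher and 64.7% lower in heart than in periphery, so that such counts are common among genes of any kind. With age in periphery, Muc11A (−0.40) and obst-I (−0.61) were lower at week 7 than at week 3, 2 of 15 tested, beside 7.83% of all genes called in either direction.

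Among 24 genes of chitin synthesis, assembly and turnover, 19 were tested between tissues, and 5 were higher and 10 lower in head than in periphery, led by the chitinase-family genes Cht12 (−5.91), Cht8 (−4.99) and Cht4 (−4.36). CS-2, the chitin synthase known for gut lining, was −4.20. Heart was higher than periphery for 2 and lower for 17 of these 19. The chitin deacetylase gene Cda9 rose in periphery by 1.20 at week 7 against week 3 (SE 0.09, limma, adjusted p = 5.79e-05), and Idgf3 by 0.51, 2 of 20 tested, beside 6.28% of all genes called higher. Among 24 genes of tanning and pigment, 19 were tested between tissues, and 12 were higher and 3 lower in head than in periphery, with Ddc, the dopa decarboxylase gene, at 2.48, ebony (e) at 2.36 and yellow-k at −2.20. ebony rose in periphery by 0.58 at week 7 against week 3 (limma, adjusted p = 0.0157), and in head fell by 0.66 at week 5 against week 3 (limma, adjusted p = 0.0412), where 0.0508% of all genes were called. The tissue counts of these 3 lists are read only beside the shares of all genes given above, and nothing particular to a list was tested. No gene of the 4 lists passed for feeding or for rhythm (limma).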

How the data were processed

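FPKM values of 29260 RefSeq transcripts in 72 libraries were computed and deposited by the authors. Per the labels' protocols, polyA+ RNA was sequenced without strand information. The tools named in the submitters' processing notes are STAR 2.2.0c, HOMER and CASAVA 1.8.2, and the build is dm3; which tool did which step is not given in the sources used here. FPKM times transcript length gave whole reads within 0.05 reads for 100% of the low values checked, from which library totals and reads per gene were recovered; limma-voom on those reads was an alternative.

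The 70 members have 86 transcripts, and 13 have several. Linear models with a trended variance prior were fitted to log2(FPKM + 1) by limma 3.58.1 (R 4.3.3), for genes averaging 1 FPKM or more in the libraries of a fit, with Benjamini-Hochberg adjustment over all genes and a threshold of 0.05. A change is a difference on that scale with its standard error (SE). Feeding was paired by labelled week and ZT, and week and tissue had ZT as a factor. Libraries with the same accession-order number were not treated as pairs. Means and figures used python 3.11.15, pandas 2.3.3, numpy 2.4.6 and matplotlib 3.10.9. Coding lengths in codons came from the Ensembl annotation, matched by symbol for 70 of 70 members, whose build is not that of the table; coordinates are the table's own.

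The members and lists were chosen with earlier results of these data known. Named members are those past the threshold, up to 15 in each direction, or else the 3 of lowest p, and the 5 highest in each tissue. Scripts were tested on simulated data.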

Additional observations from a re-analysis of the deposited data

Results flagged for a closer look

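Members named most in the text were examined on the log2(FPKM + 1) scale in groups of 4 to 10 libraries, 93 combinations of member and group. In 8 of these, the gap of 1 library to the rest was too large by Dixon's criterion. The members were chosen with results of these data known, so this count is not compared with chance. Cpr65Au in head week 5 ALF ZT15 was 1104 FPKM, where the other 6 had 131 to 304 FPKM. Cpr67Fb in head week 5 ALF ZT21 was 204 FPKM, where the other 6 had 0.713 to 3.21 FPKM, and Cpr49Ab in that library was 9.88 FPKM, where they had 0 to 1.39 FPKM. Cpr67Fb in head week 3 TRF ZT18 was 6.93 FPKM, which is only 3 reads, where the other 3 were listed at 0. Cpr67Fb in periphery week 5 TRF ZT09 was low, 161 FPKM where the other 7 had 272 to 432 FPKM. Cpr47Ef in periphery week 5 ALF ZT00 was low, 3.90 FPKM where the other 7 had 9.07 to 17.9 FPKM. In head week 3 ALF ZT12, Cpr49Ag was 57.1 FPKM, where the other 3 had 21.8 to 24.9 FPKM, and Cpr62Bb was 5.57 FPKM, where they had 8.91 to 9.71 FPKM.

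The 12 libraries left out carried members of the other body part. In 6 labelled head, Cpr67Fb had a median of 392 FPKM (298 to 531 FPKM), against 1.37 FPKM in the kept heads. In 6 labelled periphery, Cpr72Ec had a median of 70.3 FPKM (42.6 to 144 FPKM), against 2.69 FPKM in the kept peripheries.

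The feeding difference of 2 members had opposite signs in head at different ages. Cpr11B was higher under TRF in 2 of 2 pairs at week 7 and lower in 4 of 4 at week 3, and the difference of the differences was 1.90 (SE 0.51, limma, adjusted p = 0.794). Cpr67Fa1 was higher in 2 of 2 pairs at week 7 and lower in 6 of 6 at week 5, with 1.21 between them (SE 0.65, limma, adjusted p = 0.978). Neither passed, beside 0% of all genes called; these tests were added after the data were seen.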

How the results depend on the processing

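Of the counts of members called under the alternatives, 315 were equal to the main count or within 1.5 times of it and 24 were not. The main count was 0 in most comparisons, and counts that stayed at 0 are among the 315. Of the members' changes, 1171 kept direction and call, 83 lost the call and 1 turned. The cause of these shifts was not tested except where fewer genes or libraries entered. Tissue counts (heart against periphery, heart against head, head against periphery) were 37, 38 and 35 with no filter on low values and 13, 14 and 12 with a minimum of 5 FPKM. With all libraries as labelled, 0 members passed at week 5 against week 3 in head, 0 at week 5 and 0 at week 7 against week 3 in periphery, and Cpr56F in heart against head became −0.27 (limma, adjusted p = 0.477). Periphery at week 5 against week 3 gave 1 with median-of-ratios scaling, 0 in ALF alone and 0 in TRF alone; at week 7 against week 3 it gave 1 in TRF alone, and head at week 5 against week 3 gave 0 in ALF alone. The periphery rhythm count was 1 with a pseudocount of 5, a minimum of 5 FPKM or limma-voom. Leaving out each ZT in turn gave 0 to 4 (periphery, week 7 against week 3), 0 to 2 (periphery, week 5 against week 3), 0 to 1 (head, week 5 against week 3) and 0 to 2 (periphery rhythm), with 18 to 24, 22 to 25 and 19 to 21 for the tissues. Without the replicate block (week and ZT), feeding still gave 0 and periphery 4 at each of week 7 and week 5 against week 3. Without the 5 libraries that stand apart, chosen after seeing the data, the tissue counts were 22, 24 and 22 of 29. At 0.210 M reads (M, mega), the shallowest head, 1 FPKM is under 1 read for most members, so low head levels of week 3 are poorly measured.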

Other observations

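Members that reached a mean of 1 FPKM in a tissue were somewhat longer than the others. Their coding lengths ran from 93 to 1231 codons with a median of 217 codons over 33 members, beside 102 to 815 codons with a median of 162 codons over the 37 members under 1 FPKM. The 3 highest head members differed in length, at 106 codons for Cpr65Au, 260 codons for Cpr67B and 270 codons for Cpr66D. A single exon was annotated for 2 of the 33 and 4 of the 37. These are descriptions, with no test, and FPKM is already divided by transcript length.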
